A study of Mus musculus with 10 samples.

Results

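The comparison set hepatocytes carrying a hairpin against Kat2b beside hepatocytes carrying a hairpin against Wdr5, so that both sides had received an adenovirus and a targeting hairpin. It rests on 6 of the 10 libraries of the series, 3 per hairpin, and no library of the control hairpin enters the difference. Primary hepatocytes of male C57BL6/J mice aged 10 weeks were transduced for 72 hours with 2 to 4 plaque-forming units per cell of adenovirus. The viruses carried a short hairpin RNA against Kat2b (shKAT2B), against Wdr5 (shWDR5) or a non-specific one (shNS). Cells then received 100 nM glucagon or phosphate-buffered saline (PBS) for 90 minutes. Each depletion arm holds 1 PBS library (PBS A) and 2 glucagon libraries (glucagon A and glucagon B), and the shNS arm holds 2 of each. Every library pooled RNA from 3 culture dishes, and the labels do not say that the letters mark separate animals, so a p-value here measures only how these libraries vary, which may be technical. The labels list 1 hairpin per target and protein was not measured here, so the effect of losing a protein and other effects of its hairpin cannot be told apart.

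KAT2B is a lysine acetyltransferase that works inside the SAGA and ATAC coactivator complexes, where it acetylates histone H3 near active promoters. WDR5 is a scaffold subunit of the COMPASS and MLL complexes, which methylate lysine 4 of histone H3, and it is also found in the ATAC complex. Both marks are typical of active genes, and glucagon, the fasting hormone, acts on hepatocytes through cyclic AMP and the transcription factor CREB. The series title asks how loss of each factor affects hepatocyte gene expression. The comparison here asks in which genes the effects of the hairpins differ.

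Values are log2 of the deposited array intensity, and differences are shKAT2B minus shWDR5 on that scale with the standard error of the model after ±, for 3 against 3 libraries unless stated. A gene was called at a Benjamini-Hochberg adjusted p below 0.05 over the 11480 genes tested with limma. Where levels are given for an arm, they stand in the order PBS A, glucagon A and glucagon B. Array intensities of different genes are not comparable as amounts of RNA, so levels are compared within a gene. The exception is the summed intensity of marker lists, in which the brightest genes weigh most. Library medians lay between 282.1 and 298.2 on the linear scale. What arm and treatment left over had a leading component with 78.0% of the residual variance, and it set shNS PBS A and the 3 glucagon A libraries apart from the other 6. Each depletion arm has its glucagon A library in the first set and its other libraries in the second, so the difference between the arms is balanced over the sets.

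The depletions separated the hepatocytes broadly. Of the 11480 genes tested, 2608 were called (22.7%), 1290 higher (11.2%) and 1318 lower (11.5%) in shKAT2B than in shWDR5, and 4077 (35.5%) had an unadjusted p below 0.05. The median difference over all genes tested was 0.02. Called genes that differed by at least 2-fold numbered 64 on the higher side (0.557%) and 103 on the lower side (0.897%). In 2604 of the called genes the shKAT2B and shWDR5 libraries did not overlap within either treatment, beside 4940 of all genes tested (43%). Over both treatments together 2557 of the called genes did not overlap, beside 36.2% of all genes tested. Without shWDR5 PBS A 1442 genes were called, and without shKAT2B PBS A 1517. With the library set as a term, a fit added after seeing the data, 5787 genes were called (50.4%, 25.8% higher and 24.6% lower), and all 2608 were among them. The sets were drawn from the residuals of these same values, and the difference between the arms is balanced over them. The term therefore lowers the spread by construction, and its larger counts here and below are not separate support.

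Each target was low in its own arm. Kat2b (feature 10445909) stood at 6.60, 6.92 and 6.58 in shKAT2B and at 9.49, 9.59 and 9.47 in shWDR5. It was 7.05-fold lower in shKAT2B, at -2.82 ± 0.10 (adjusted p = 3.35e-06). Wdr5 (feature 10470427) stood at 10.07, 9.98 and 10.07 in shKAT2B and at 8.19, 8.32 and 8.40 in shWDR5, which is 3.33-fold higher in shKAT2B (1.74 ± 0.07, adjusted p = 7.53e-06). Neither gene overlapped between the arms. In the arm against the other factor each target stayed close to shNS, with 0.10 for Kat2b in shWDR5 (adjusted p = 0.546) and 0.00 for Wdr5 in shKAT2B (adjusted p = 0.991). Among the complexes the pattern was limited. Of 24 SAGA and ATAC subunits other than Kat2b, 1 was called higher and 1 lower (8.33%), beside 22.7% of all genes tested. Their median was -0.02, and the paralog Kat2a stood at -0.12 ± 0.09 (adjusted p = 0.399). Of 17 COMPASS and MLL subunits other than Wdr5, 2 were called higher and 1 lower (17.6%), also a smaller share than over all genes. With any 1 library left out, 0 to 2 SAGA and ATAC subunits were called higher and 0 to 1 lower, and 1 to 2 COMPASS and MLL subunits higher and 1 to 3 lower. With the library set as a term, 4 SAGA and ATAC subunits were called higher and 5 lower, and 4 COMPASS and MLL subunits in each direction. The lower COMPASS and MLL gene was Psip1, a chromatin reader that associates with MLL complexes, which was lower in shKAT2B by -0.69 ± 0.09 (adjusted p = 0.00124) and stood at -0.69 against shNS in shKAT2B but at -0.01 in shWDR5.

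The 4 genes given with the comparison as its markers came from different pathways. Il1f9 (feature 10469786), a cytokine of the interleukin-1 family, stood at 6.72, 5.88 and 6.71 in shKAT2B and at 9.70, 9.12 and 9.80 in shWDR5. The difference of -3.10 ± 0.25, or 8.59-fold, was the largest in size of all genes tested (adjusted p = 0.000147), and no library of one arm reached the other. It was -2.98 in the PBS A pair of libraries, -3.24 in the glucagon A pair and -3.09 in the glucagon B pair. The shNS libraries lay between 6.95 and 7.47, so that the distance came mainly from the WDR5 side, with 2.36 against shNS in shWDR5 (adjusted p = 0.00155) and -0.74 in shKAT2B (adjusted p = 0.0701). Of the 7 members of the interleukin-1 family tested, Il1f9 and the receptor subunit Il1rap were called lower and none higher. This was 28.6%, beside 22.7% of all genes tested, and the family median was 0.02. Il1rap stood at -0.73 ± 0.20 (adjusted p = 0.0289). Its call was lost without shWDR5 PBS A (adjusted p = 0.0785), without shWDR5 glucagon A (0.0880), without shKAT2B PBS A (0.117) and without shKAT2B glucagon B (0.104).

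Tdo2 (feature 10498921), the enzyme that opens the tryptophan ring and so feeds the kynurenine pathway, was placed on both sides of the control. It stood at 8.80, 8.86 and 8.99 in shKAT2B, at 11.04, 10.79 and 11.08 in shWDR5 and between 10.15 and 10.38 in shNS. All shKAT2B libraries lay below, and all shWDR5 libraries above, every shNS library. The difference was -2.09 ± 0.10, or 4.25-fold (adjusted p = 1.11e-05), made up of -1.41 against shNS in shKAT2B (adjusted p = 7.25e-05) and 0.68 in shWDR5 (adjusted p = 0.00386). Kynu, kynureninase of the same pathway, went the other way at 0.53 ± 0.09 (adjusted p = 0.00396). Its libraries stood at 11.10, 11.29 and 10.97 in shKAT2B against 10.74, 10.49 and 10.54 in shWDR5, without overlap. Kynu differed from shNS by -0.76 in shWDR5 (adjusted p = 0.00215) and by -0.23 in shKAT2B (adjusted p = 0.115). Of the 19 tested genes that break down amino acids or make urea, 4 were called higher and 5 lower, with a median of 0.02. Over all genes tested 11.2% were called higher and 11.5% lower. The higher count was 1 without either glucagon B library of the depletion arms and 2 without shNS glucagon A or any other depletion library. The lower count was 2 without either PBS A library of the depletion arms and 3 without shNS glucagon A, shKAT2B glucagon A or either of those glucagon B libraries. Cth and Cbs, the enzymes of transsulfuration, which turns homocysteine into cysteine, were both lower in shKAT2B. Cth stood at -1.24 ± 0.23 (adjusted p = 0.00564, or 0.0624 with glucagon libraries only in the depletion arms) and Cbs at -0.83 ± 0.22 (adjusted p = 0.0242). The call of Cbs was lost when shWDR5 PBS A (adjusted p = 0.124), shKAT2B PBS A (0.0818), shWDR5 glucagon B (0.0883) or shKAT2B glucagon A (0.0694) was left out.

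Gpx3 (feature 10376201), the secreted glutathione peroxidase, was the gene with the highest difference. Its libraries stood at 10.66, 10.21 and 10.73 in shKAT2B and at 8.34, 8.33 and 8.35 in shWDR5, with shNS at 8.68 and 9.34 under PBS and at 8.49 and 9.33 under glucagon. The arms did not overlap, and all shNS libraries lay between them. The difference was 2.19 ± 0.24, or 4.57-fold (adjusted p = 0.000448). It came from the KAT2B side with 1.59 against shNS (adjusted p = 0.00221), while shWDR5 stood at -0.60 (adjusted p = 0.127). The shNS values themselves split by letter, which matches the library sets named above.

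**Figure D1:**
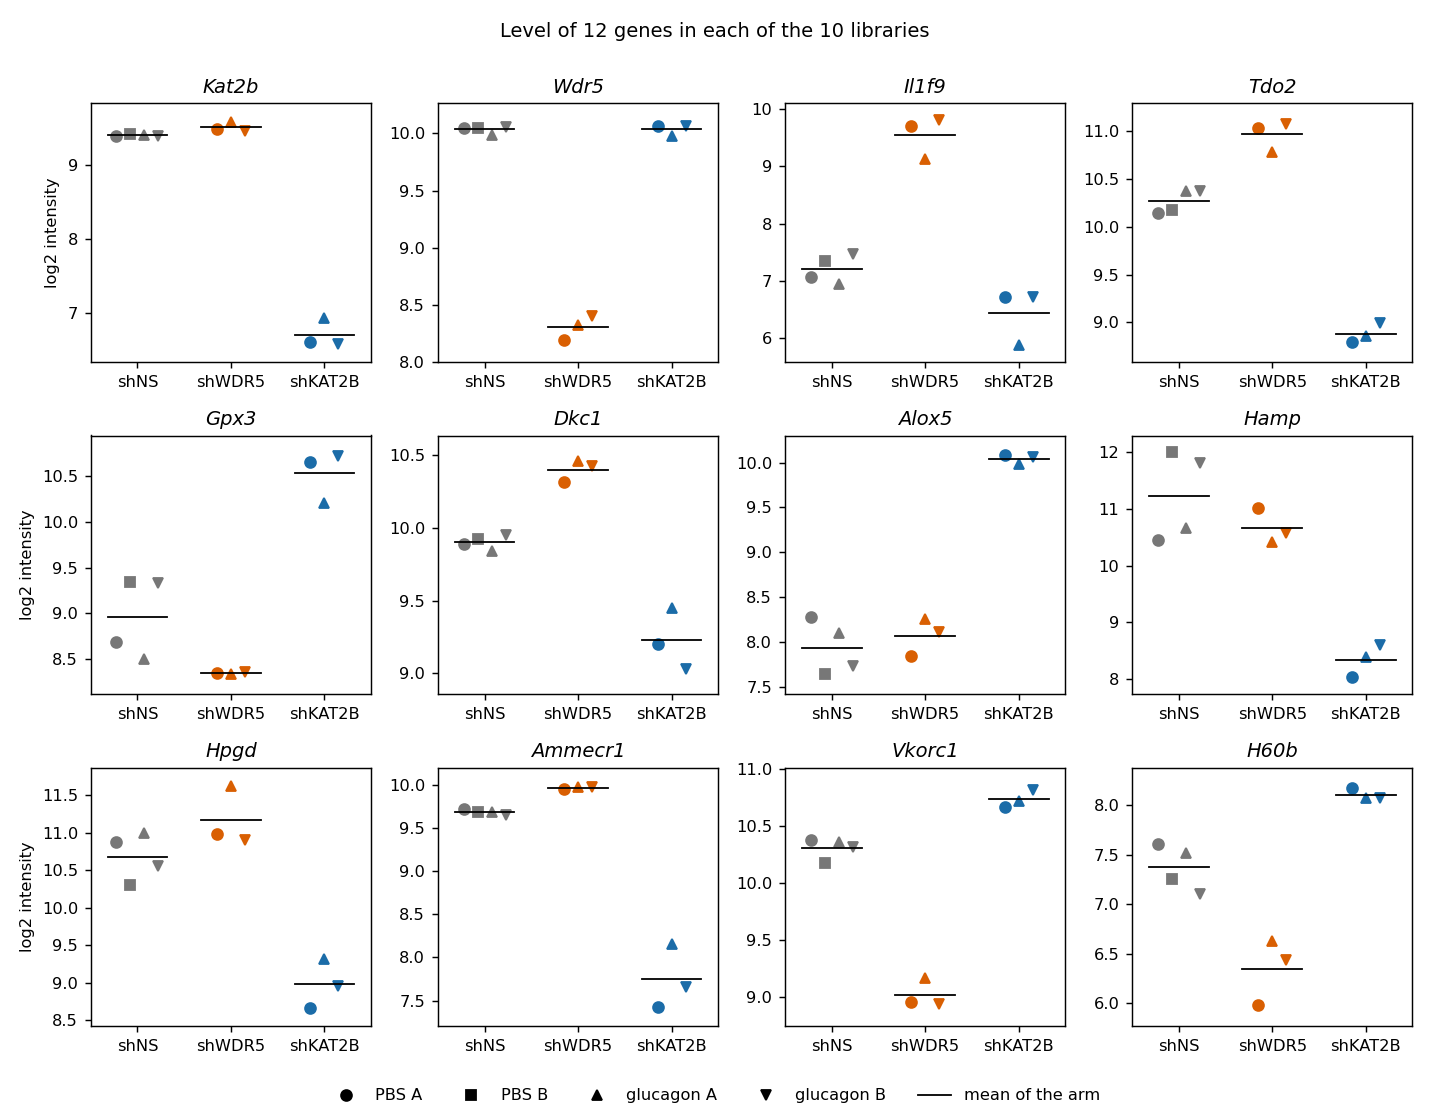
Level of 12 genes in each of the 10 libraries, as log2 intensity on the vertical axis with its own range per gene, by arm on the horizontal axis. Circles and squares are PBS libraries A and B, upward and downward triangles are glucagon libraries A and B, and horizontal lines are means of an arm. In none of the 12 genes does a shKAT2B library overlap a shWDR5 library, beside 36.2% of all genes tested without overlap. This is largely fixed by choice, since all but Dkc1 come from the highest and lowest 10, chosen without overlap within a treatment. For Il1f9 the shNS libraries (6.95 to 7.47) lie near shKAT2B, while for Alox5 they lie near shWDR5.

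The highest differences also included a lipoxygenase and a pair of immune ligands. Alox5, the lipoxygenase that starts leukotriene synthesis, stood at 10.08, 9.98 and 10.06 in shKAT2B and at 7.84, 8.26 and 8.11 in shWDR5 (1.97 ± 0.17, 3.92-fold, adjusted p = 0.000196). The shNS libraries spanned 7.64 to 8.28 and overlapped shWDR5, and the gene was at 2.09 against shNS in shKAT2B and at 0.12 in shWDR5. Hpgd, the dehydrogenase that inactivates prostaglandins, was among the lowest genes at -2.18 ± 0.22, or 4.54-fold (adjusted p = 0.000322), with 8.67, 9.32 and 8.96 in shKAT2B against 10.98, 11.62 and 10.90 in shWDR5. Cd80, a costimulatory ligand for T cells, stood at 1.76 ± 0.18 (adjusted p = 0.000384), with 10.15, 9.39 and 10.17 in shKAT2B against 8.30, 7.90 and 8.24 in shWDR5. H60b, a ligand of the activating receptor NKG2D of natural killer cells, stood at 8.17, 8.07 and 8.07 in shKAT2B, at 5.98, 6.63 and 6.44 in shWDR5 and between 7.10 and 7.61 in shNS. It differed by 1.75 ± 0.18 (adjusted p = 0.000337) and was called against shNS in both arms, at 0.72 in shKAT2B and -1.04 in shWDR5. The adenylate kinase gene Ak1 followed at 1.69 ± 0.22 (adjusted p = 0.00097).

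Of the remaining genes of the highest 10, 3 lost their call when single libraries were left out. Adcy1, an adenylyl cyclase, stood at 1.85 ± 0.49 (adjusted p = 0.0243), with 10.04, 8.51 and 10.10 in shKAT2B against 7.94, 7.24 and 7.93 in shWDR5. Its adjusted p rose to 0.106 without shKAT2B PBS A, 0.0901 without shKAT2B glucagon B, 0.0834 without shWDR5 PBS A and 0.0741 without shWDR5 glucagon A. Ano3, of the anoctamin family, stood at 1.80 ± 0.40 (adjusted p = 0.0121), and its adjusted p was 0.0638 without shWDR5 PBS A and 0.0506 without shWDR5 glucagon B. Xirp2, which binds actin in striated muscle, stood at 1.73 ± 0.41 (adjusted p = 0.0155). Its adjusted p was 0.0795 without shKAT2B PBS A, 0.0747 without shWDR5 PBS A and 0.0622 without shKAT2B glucagon B. The highest 10 were chosen among genes without overlap within a treatment, so the same sign in all 3 library pairs was fixed by that choice.

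Hepcidin had the lowest difference between the arms after Il1f9 and Kat2b. Hamp (feature 10562169), which encodes this hormone that limits iron export into plasma, stood at 8.03, 8.39 and 8.59 in shKAT2B and at 11.02, 10.41 and 10.57 in shWDR5, without overlap. The difference was -2.33 ± 0.41, or 5.03-fold (adjusted p = 0.00394), and the gene lay at -2.89 against shNS in shKAT2B (adjusted p = 0.00164) and at -0.56 in shWDR5 (adjusted p = 0.406). The shNS A libraries stood at 10.46 (PBS) and 10.66 (glucagon) and the B libraries higher, with glucagon B at 11.81, and all 4 lay above every shKAT2B library. Of 19 iron genes and targets of bone morphogenetic protein signalling tested, 3 were called lower and none higher, with a median of -0.00. This share of 15.8% was smaller than the 22.7% called over all genes tested. The calls besides Hamp were Tfrc, the transferrin receptor, at -0.68 ± 0.15 (adjusted p = 0.0134), and Id1, a target of that signalling, at -0.41 ± 0.12 (adjusted p = 0.0388). Tfrc lost its call without shKAT2B PBS A (adjusted p = 0.0506), shWDR5 PBS A (0.0546) or shWDR5 glucagon B (0.0551). Id1 lost it without shWDR5 PBS A (adjusted p = 0.137), shKAT2B PBS A (0.105), shKAT2B glucagon A (0.0996), shWDR5 glucagon B (0.0957), shWDR5 glucagon A (0.0717) or shNS glucagon A (0.0620), on the 6 depletion libraries alone (0.0776) and under quantile normalization (0.0590). Without either PBS A library of the depletion arms or shWDR5 glucagon B, 1 gene of this list was called in place of 3. With glucagon libraries only in the depletion arms, a fit added after seeing the data, Hamp stood at -2.0 (adjusted p = 0.0733).

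The other genes of the lowest 10 left the control mainly in shKAT2B. Ammecr1 stood at 7.43, 8.16 and 7.66 in shKAT2B and at 9.95, 9.97 and 9.97 in shWDR5 (-2.21 ± 0.15, 4.64-fold, adjusted p = 5.18e-05). Akr1c14, an aldo-keto reductase of steroid metabolism, stood at 9.75, 10.07 and 9.84 against 11.79, 11.58 and 11.72 (-1.81 ± 0.11, adjusted p = 3.25e-05), and shWDR5 lay within the range of shNS, at 11.55 to 11.85. Ivl, which encodes involucrin of the epidermal envelope, stood at 8.88, 8.68 and 8.38 against 10.61, 10.82 and 10.22 (-1.90 ± 0.16, adjusted p = 0.000147). Lox, the lysyl oxidase that crosslinks collagen, stood at 7.75, 8.71 and 7.84 against 9.69, 10.62 and 9.75 (-1.92 ± 0.31, adjusted p = 0.00287). In Lox the glucagon A library was the highest of its arm on both sides, and the differences within the 3 pairs were -1.94, -1.91 and -1.91. Apela, a peptide ligand of the apelin receptor, stood at -1.80 ± 0.40 (adjusted p = 0.0116), and its adjusted p was 0.0632 once shWDR5 PBS A was left out.

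**Figure D2:**
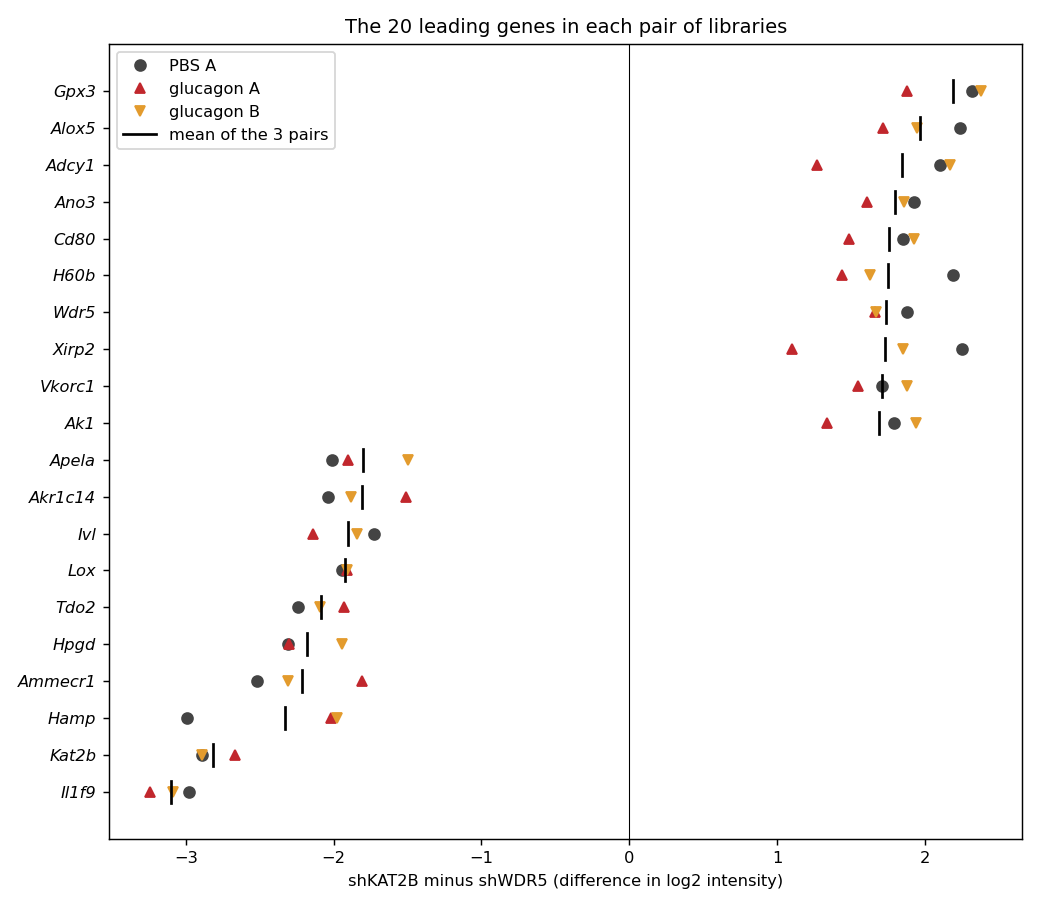
Difference between the arms (shKAT2B minus shWDR5, log2 intensity) for the 10 called genes with the highest and the 10 with the lowest difference, on the horizontal axis, separately in each pair of libraries of the same treatment and letter. Dark circles are the PBS A pair, upward triangles the glucagon A pair, downward triangles the glucagon B pair and vertical ticks the mean of the 3. Every pair has the sign of the mean, which was fixed by choosing genes without overlap within a treatment. For Il1f9 the pairs stand at -2.98, -3.24 and -3.09.

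Placing each arm beside the control hairpin describes from which side the large differences came. The library sets are not balanced here, since PBS A and glucagon A of shNS lie in the first set, but only glucagon A of each depletion arm. How far this shifted the values against shNS was not tested. Both contrasts use the same 4 shNS libraries, in which 15.6% of all genes tested were called in shKAT2B (6.65% higher, 8.95% lower) and 10.9% in shWDR5 (4.69% higher, 6.17% lower). Counts of list members against shNS given below stand beside these shares. Of the 64 genes at least 2-fold higher in shKAT2B, 50 were called against shNS in shKAT2B, 27 in shWDR5, 16 in both and 3 in neither. Of the 103 genes at least 2-fold lower, 71 were called against shNS in shKAT2B, 41 in shWDR5, 19 in both and 10 in neither. Among genes called in both, the arms lay on opposite sides of shNS in 15 of the 16 and in all 19. That count is in part fixed by choosing genes with a large difference between the arms, and nothing is read from it. Tdo2, Vkorc1, H60b and Dkc1 are examples of genes on opposite sides.

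**Figure D3:**
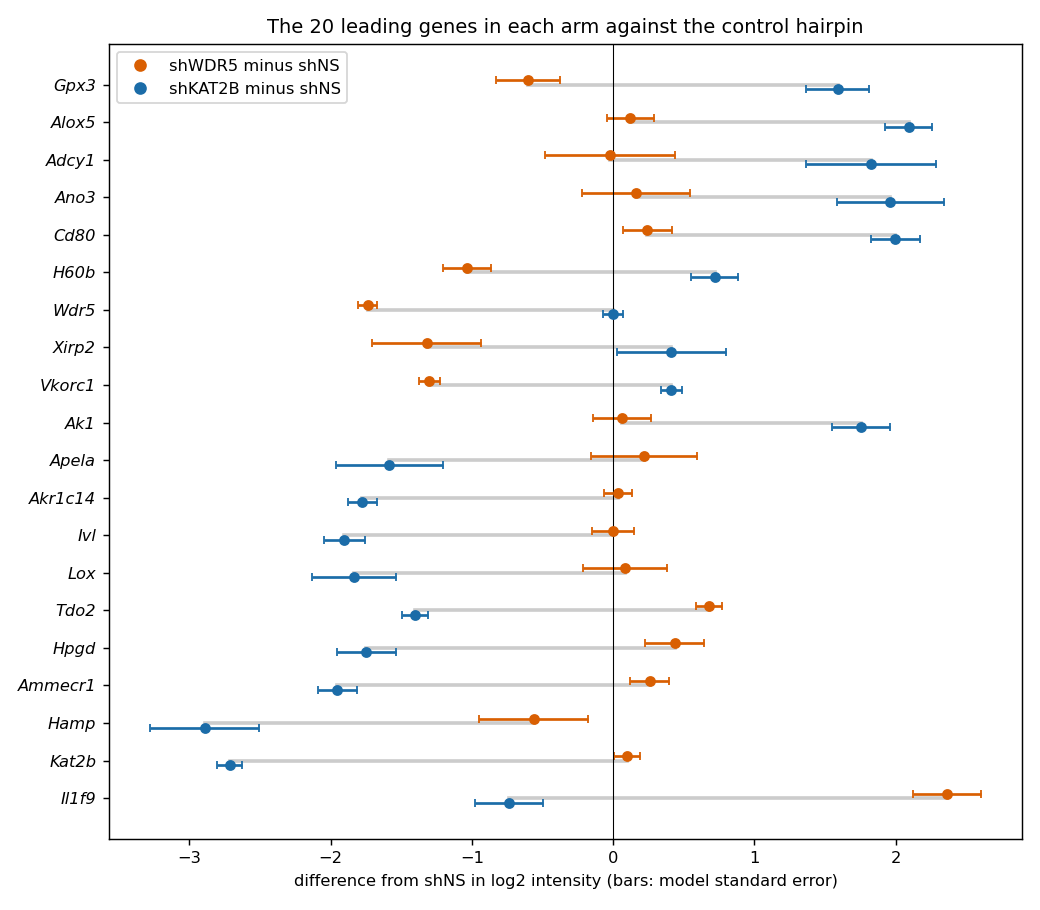
Difference of each depletion arm from shNS (log2 intensity, horizontal axis, bars are the standard error of the model) for the same 20 genes, with shWDR5 in orange and shKAT2B in blue and grey lines joining them. Alox5 lies at 2.09 in shKAT2B and 0.12 in shWDR5, Il1f9 at -0.74 and 2.36, and Vkorc1 at 0.41 and -1.30.

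Genes of ribosome biogenesis, the assembly of ribosomal subunits in the nucleolus, were lower in shKAT2B than in shWDR5 as a group. Of 27 members, all tested, 18 were called lower and none higher, with a median of -0.38, beside 11.5% called lower and a median of 0.02 over all genes tested. The median was -0.37 in the PBS A pair, -0.48 in the glucagon A pair and -0.40 in the glucagon B pair, and 13 to 19 members were called lower with any 1 library left out. Against shNS, 5 were called lower in shKAT2B (median -0.17) and 9 higher in shWDR5 (median 0.25). Dkc1 (feature 10600485), the pseudouridine synthase of small nucleolar and telomerase ribonucleoproteins, stood at 9.20, 9.45 and 9.03 in shKAT2B and at 10.31, 10.46 and 10.42 in shWDR5. The shNS libraries fell between them at 9.84 to 9.95. Its difference was -1.17 ± 0.10, or 2.25-fold (adjusted p = 0.000195), with -0.68 against shNS in shKAT2B (adjusted p = 0.00234) and 0.49 in shWDR5 (adjusted p = 0.0157). Wdr43, a factor of small subunit assembly, stood at 10.66, 10.65 and 10.52 against 11.26, 11.21 and 11.19 (-0.61 ± 0.05, adjusted p = 0.000195). Nolc1, a nucleolar phosphoprotein, differed by -0.61 ± 0.07 (adjusted p = 0.000524) and Nop56, a core protein of box C/D particles, by -0.59 ± 0.07 (adjusted p = 0.000785). In these 3 genes no library of one arm overlapped the other.

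The E-box CACGTG, the sequence bound by MYC and related factors, was searched in the promoters because genes of ribosome biogenesis moved together. RefSeq promoters (GRCm38.p6, 250 bases before to 50 after each start, both strands, at least 1 match) were found for 22 of the 27 genes. The motif was in 6 of their 30 promoters (20%), in 12.7% of promoters of genes called lower, 8.26% of those called higher, 10.0% of those of all genes tested and 7.15% of all promoters. A member that was called and a member that was not are shown with the motif in capitals, on the plus strand and 5′ to 3′. Nop2 lies at chr6:125131783-125131868 and Rrn3 at chr16:13780611-13780696.
Nop2: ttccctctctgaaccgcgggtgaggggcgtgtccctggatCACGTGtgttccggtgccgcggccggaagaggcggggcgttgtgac
Rrn3: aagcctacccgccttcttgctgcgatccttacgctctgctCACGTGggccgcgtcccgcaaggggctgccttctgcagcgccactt
Nop2, an RNA methyltransferase of the nucleolus, differed by -0.53 ± 0.13 (adjusted p = 0.0183). Rrn3, the initiation factor of RNA polymerase I, stood at 0.10 ± 0.08 (adjusted p = 0.431), the 1 positive value among the 27. The 6 letters therefore stood in the promoters of members with and without a called difference, and a match is not a measured binding site. The cAMP response element TGACGTCA, the CREB site, was in 3.02% of promoters of genes called higher and in 2.67% of those called lower, beside 2.94% over the genes tested.

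Of 22 cytosolic ribosomal protein genes tested, 6 were called higher in shKAT2B and none lower, with a median of 0.11, beside 11.2% called higher over all genes tested. Rps7 stood at 12.88, 12.92 and 12.86 in shKAT2B and at 12.56 in each shWDR5 library (0.33 ± 0.04, adjusted p = 0.000635), and Rps3 at 0.46 ± 0.06 (adjusted p = 0.00144). Both were called against shNS in shWDR5, at -0.32 and -0.38, and stood at 0.01 and 0.08 in shKAT2B. Ribosomal protein genes have many near-identical pseudogenes, and probes may read them too. Without shWDR5 PBS A or shWDR5 glucagon A 3 members were called, and without shKAT2B PBS A or shKAT2B glucagon B 2. In the last 2 fits 764 and 834 of the 11480 genes tested were called higher. With the library set as a term 12 were called higher and none lower.

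Cell cycle genes had the lowest median of all lists. Of 29 tested, 11 were called lower in shKAT2B and none higher, beside 11.5% called lower over all genes tested. The median was -0.80, and 28 of the 29 were negative. It was -0.71 in the PBS A pair, -0.92 in the glucagon A pair and -0.74 in the glucagon B pair. With any 1 library left out the median lay between -0.98 and -0.55. Against shNS none was called in shKAT2B (median 0.04), and 9 were called higher in shWDR5 (median 0.85). Cdk1, the kinase that drives entry into mitosis, stood at 10.71, 10.39 and 10.75 in shKAT2B, at 11.26, 11.21 and 11.38 in shWDR5 and between 10.56 and 10.78 in shNS. It differed by -0.67 ± 0.10, or 1.59-fold (adjusted p = 0.00219), and shKAT2B overlapped shNS while shWDR5 lay above both. Rrm2, the ribonucleotide reductase subunit of S phase, stood at 10.45, 9.38 and 10.47 against 11.54, 11.05 and 11.71 (-1.33 ± 0.32, adjusted p = 0.017). The mitotic kinesin Kif20a (-1.12 ± 0.25, adjusted p = 0.0124) and Cep55 of cell abscission (-1.15 ± 0.29, adjusted p = 0.019) had the same form, with each glucagon A library the lowest of its arm. The count of calls rested on single libraries, with 1 member called once shWDR5 PBS A was left out, 2 without shWDR5 glucagon B, and 4 each without shKAT2B PBS A or shKAT2B glucagon A. In the same order, 743, 1021, 753 and 1342 of all genes tested were called lower in these fits, against 1318 with all libraries. Leaving out shWDR5 PBS A or shWDR5 glucagon B ended the calls of Rrm2 (adjusted p = 0.0634 and 0.0672), Kif20a (0.0581 and 0.0522) and Cep55 (0.0755 and 0.0735). Cep55 was also at 0.0538 without shKAT2B glucagon A and at 0.0501 without shKAT2B PBS A. With the library set as a term, 24 of the 29 were called lower and 1 higher.

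**Figure D4:**
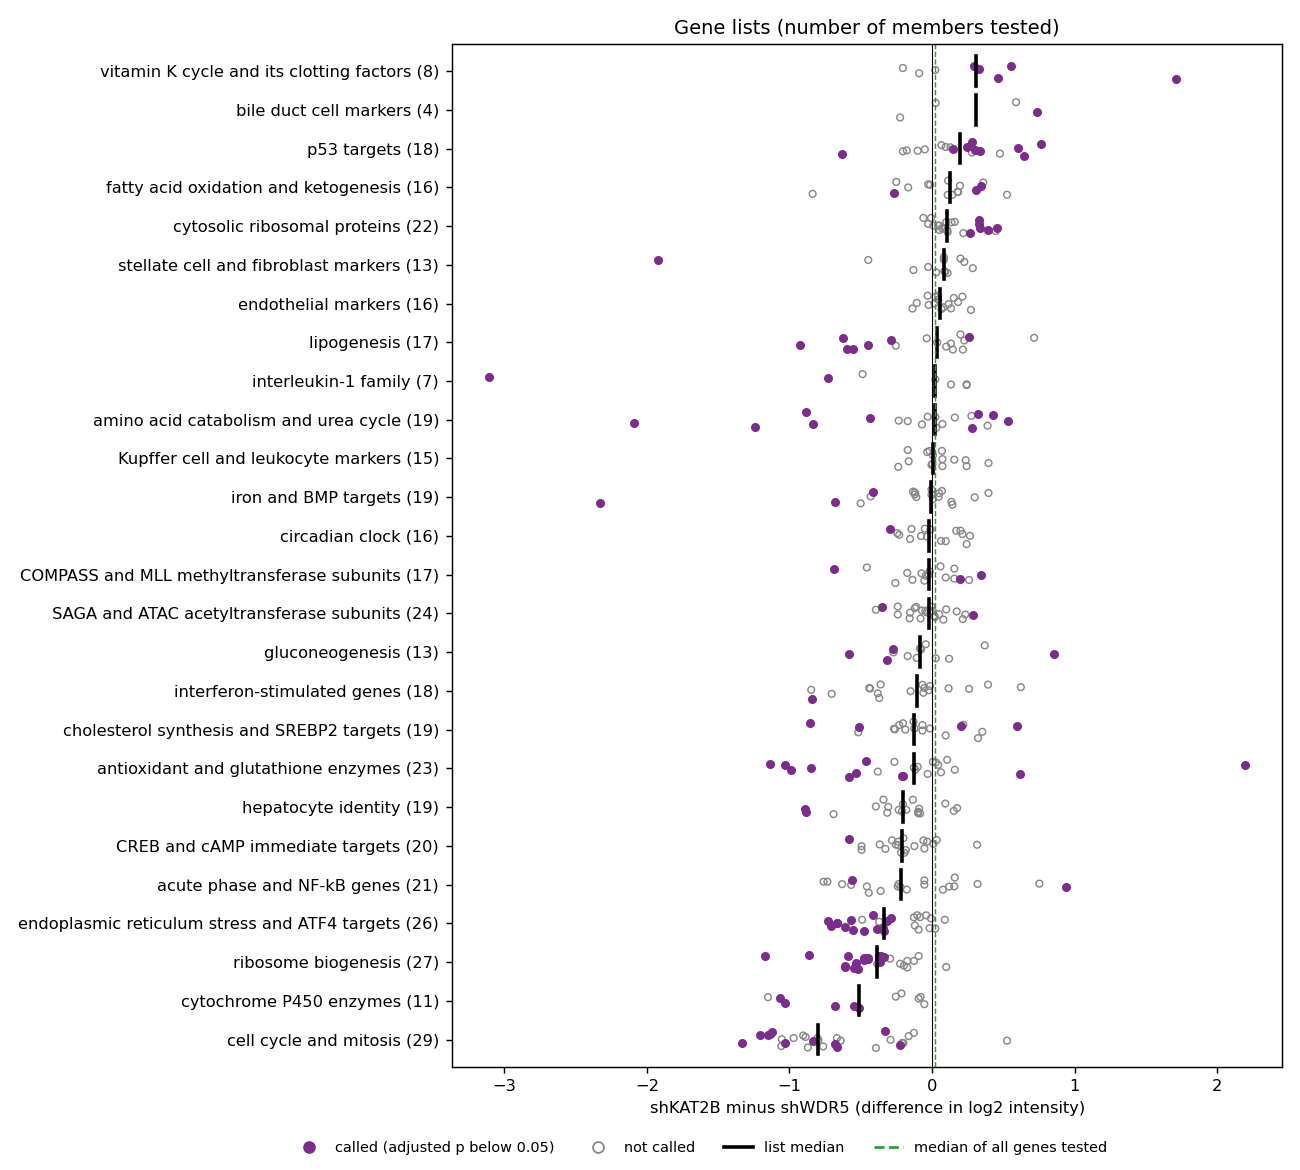
Differences (shKAT2B minus shWDR5, log2 intensity, horizontal axis) of the tested members of 26 gene lists, 1 point per gene and 1 row per list, with the number tested in brackets. Filled points were called, open points were not, black bars are list medians and the dashed line is the median of all genes tested (0.02). The lists run from vitamin K genes at the top (median 0.31) to cell cycle genes at the bottom (median -0.80).

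Genes of the response to misfolded protein in the endoplasmic reticulum and of the transcription factor ATF4 were lower in shKAT2B. Of 26 tested, 14 were called lower and none higher, with a median of -0.34, beside 11.5% called lower over all genes tested. Dnajb9, a chaperone cofactor of the endoplasmic reticulum, stood at 11.50, 11.23 and 11.53 in shKAT2B and at 12.06, 12.13 and 12.25 in shWDR5 (-0.73 ± 0.12, adjusted p = 0.00338). The disulfide isomerases Pdia6 and Pdia4 differed by -0.66 ± 0.10 (adjusted p = 0.00196) and -0.61 ± 0.09 (adjusted p = 0.00198). Psat1, an enzyme of serine synthesis, differed by -0.47 ± 0.08 (adjusted p = 0.00274). The 4 genes took different sides of the control, since Dnajb9 and Pdia4 were called against shNS in shWDR5 (0.60 and 0.38) and Pdia6 and Psat1 in shKAT2B (-0.40 and -0.34). Over the list, 4 members were called lower and 1 higher in shKAT2B and 6 higher and none lower in shWDR5. The count was 8 without shWDR5 PBS A and 9 without shKAT2B PBS A.

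Antioxidant enzymes included both the highest gene of the comparison and a block of lower ones. Of 23 tested, 2 were called higher and 9 lower, beside 11.2% and 11.5% of all genes tested. The median was -0.13, and 1 of the 2 higher ones was Gpx3. Srxn1, sulfiredoxin, which repairs oxidised peroxiredoxins, stood at 11.12, 11.10 and 11.33 in shKAT2B and at 12.15, 12.30 and 12.19 in shWDR5 (-1.03 ± 0.06, 2.04-fold, adjusted p = 4.37e-05). The shNS libraries spanned 12.05 to 12.17, close to shWDR5. Gclc, the catalytic subunit of the first enzyme of glutathione synthesis, differed by -0.85 ± 0.12 (adjusted p = 0.00119) and the quinone reductase Nqo1 by -1.13 ± 0.17 (adjusted p = 0.00165). Against shNS, 13 of the 23 were called lower and 1 higher in shKAT2B, and 1 lower and none higher in shWDR5. Nfe2l2, which encodes the factor NRF2 that drives many of these genes, stood at 0.04 ± 0.08 (adjusted p = 0.738), and its inhibitor Keap1 at 0.06 ± 0.16 (adjusted p = 0.822). In place of 2, 1 member was called higher without shNS PBS B, shNS glucagon A, either PBS A library of the depletion arms, shWDR5 glucagon B or shKAT2B glucagon A.

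The core letters of the antioxidant response element bound by NRF2, TGACNNNGC, were searched in the same way, as a motif added after seeing the data. Promoters were found for 20 of the 23 genes. The core was in 6 of their 25 promoters (24.0%), in 14.9% of promoters of genes called lower, 14.5% of those called higher, 14.2% of those of all genes tested and 12.4% of all promoters. It is short and was also in 38.1% of the 21 promoters of CREB and cAMP targets. Motifs were searched independently, so a base can count for more than 1. Stretches of 2 called members and 1 that was not are shown on the plus strand, 5′ to 3′, with the core or its reverse complement in capitals. Gclm lies at chr3:122245383-122245471, Txnrd1 at chr10:82859074-82859162 and Prdx1 at chr4:116685426-116685514.
Gclm: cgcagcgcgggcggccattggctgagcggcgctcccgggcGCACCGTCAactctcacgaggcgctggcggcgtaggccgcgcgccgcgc
Txnrd1: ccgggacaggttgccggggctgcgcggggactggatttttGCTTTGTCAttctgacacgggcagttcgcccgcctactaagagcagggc
Prdx1: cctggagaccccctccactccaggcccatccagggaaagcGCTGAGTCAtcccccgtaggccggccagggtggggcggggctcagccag
Gclm, the regulatory subunit partner of Gclc, differed by -0.58 ± 0.11 (adjusted p = 0.00476) and Txnrd1, a thioredoxin reductase, by -0.53 ± 0.08 (adjusted p = 0.00239). Prdx1, a peroxiredoxin, stood at -0.10 ± 0.06 (adjusted p = 0.261) although its promoter held the same core letters.

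The vitamin K cycle held 1 large difference. Vkorc1 (feature 10568328), the reductase that recycles vitamin K and the target of warfarin, stood at 10.67, 10.72 and 10.82 in shKAT2B, at 8.96, 9.17 and 8.94 in shWDR5 and between 10.18 and 10.38 in shNS. The difference was 1.71 ± 0.08, or 3.28-fold (adjusted p = 1.11e-05), with -1.30 against shNS in shWDR5 (adjusted p = 0.000128) and 0.41 in shKAT2B (adjusted p = 0.0077). Of the 8 genes of the vitamin K cycle and its clotting factors tested, 5 were called higher and none lower, with a median of 0.31, beside 11.2% called higher over all genes tested, and in shWDR5 4 were called lower than shNS. Ggcx, the carboxylase that uses vitamin K, stood at 9.48, 10.01 and 9.68 against 9.04, 9.37 and 9.09 (0.56 ± 0.12, adjusted p = 0.0108). Its adjusted p was 0.0509 without shWDR5 PBS A. The anticoagulant Proc differed by 0.30 ± 0.07 (adjusted p = 0.0199) and its cofactor Pros1 by 0.33 ± 0.09 (adjusted p = 0.0336). Both of these lost their call without shWDR5 glucagon A (adjusted p = 0.0592 for Proc and 0.0598 for Pros1), shWDR5 glucagon B (0.0693 and 0.103) or shKAT2B glucagon A (0.0574 and 0.0945). Proc also lost it without shKAT2B glucagon B (0.0686) and Pros1 without shWDR5 PBS A (0.102) or shKAT2B PBS A (0.0881). For the list, 2 to 3 members were called higher without any 1 of the 6 depletion libraries, and 5 higher and 1 lower with the library set as a term.

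Of 18 targets of the tumour suppressor p53 tested, 8 were called higher in shKAT2B and 1 lower, with a median of 0.20, beside 11.2% called higher over all genes tested. Ei24, a protein of the endoplasmic reticulum, stood at 12.22, 12.06 and 12.08 in shKAT2B and at 11.49, 11.22 and 11.36 in shWDR5 (0.76 ± 0.07, adjusted p = 0.000231). Phlda3, an inhibitor of AKT, differed by 0.65 ± 0.10 (adjusted p = 0.00222) and Perp, a desmosome protein, by 0.60 ± 0.06 (adjusted p = 0.000413). Trp53inp1, a regulator of p53 and of autophagy, was the 1 lower call at -0.63 ± 0.07 (adjusted p = 0.000506). Against shNS, 6 members were called higher and 0 lower in shKAT2B (median 0.19), and 4 higher and 2 lower in shWDR5 (median 0.09). Ei24 and Trp53inp1 were called against shNS only in shWDR5, at -0.59 and 0.46, and stood at 0.18 and -0.17 in shKAT2B. Higher calls numbered 4 without shWDR5 PBS A, shKAT2B PBS A or shKAT2B glucagon B and 5 without shWDR5 glucagon B.

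Liver metabolism split gene by gene. Of 17 lipogenic genes tested, 6 were called lower and 1 higher, beside 11.5% and 11.2% of all genes tested, with a median of 0.04. Of these genes 3 were called lower without shWDR5 PBS A or shWDR5 glucagon B, and 2 higher without shKAT2B glucagon A. Mlxipl, the glucose-sensing factor ChREBP, stood at 9.99, 9.83 and 10.06 in shKAT2B and at 10.70, 10.40 and 10.56 in shWDR5 (-0.59 ± 0.09, adjusted p = 0.00162). Against shNS, Mlxipl stood at -0.23 in shKAT2B (adjusted p = 0.0862) and at 0.36 in shWDR5 (adjusted p = 0.025). Pklr, liver pyruvate kinase and a known target of ChREBP, differed by -0.62 ± 0.08 (adjusted p = 0.000933). Unlike Mlxipl in shWDR5, Pklr was lower than shNS in both arms, at -1.22 in shKAT2B and -0.60 in shWDR5. Acaca, the acetyl-CoA carboxylase of fatty acid synthesis, differed by -0.56 ± 0.09 (adjusted p = 0.0033). All 11 cytochrome P450 enzymes tested had a negative difference, at a median of -0.51. Of them 5 were called lower, beside 11.5% of all genes tested. Cyp2j5, which epoxidises arachidonic acid, stood at 7.43, 7.52 and 7.11 against 8.65, 8.22 and 8.38 (-1.06 ± 0.18, adjusted p = 0.0032). The P450 count was 2 without shKAT2B PBS A and 3 without shWDR5 PBS A or shKAT2B glucagon B.

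Among gluconeogenic genes, 1 of 13 was called higher and 3 lower (30.8%, beside 22.7% of all genes tested), with a median of -0.08. The higher one was Slc37a4, the transporter that brings glucose 6-phosphate to its phosphatase, at 8.66, 9.26 and 8.84 in shKAT2B against 8.0, 8.37 and 7.83 in shWDR5 (0.85 ± 0.17, adjusted p = 0.0071). With glucagon libraries only in the depletion arms its adjusted p was 0.0573. Without either PBS A library of the depletion arms 1 gene was called lower in place of 3, and without shKAT2B glucagon A 2 were called higher. G6pc, the catalytic subunit of that phosphatase, stood at 5.86 under PBS in shKAT2B and 5.85 in shWDR5. Under glucagon it stood at 8.41 and 8.87 in shKAT2B and at 7.86 and 9.35 in shWDR5, so the arms overlapped (0.03 ± 0.41, adjusted p = 0.972). Pck1, which commits carbon to gluconeogenesis, overlapped likewise (-0.04 ± 0.37, adjusted p = 0.949).

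Of 20 CREB and cAMP targets tested, the immediate targets of glucagon signalling, 1 was called lower and none higher. This was 5%, beside 22.7% of all genes tested, while 17 were negative and the median was -0.21. With the library set as a term 9 were called lower and 1 higher. Without shKAT2B PBS A 3 were called lower. The called one was Ppargc1a, the coactivator of fasting genes, which stood at 8.76 under PBS and at 10.51 and 10.35 under glucagon in shKAT2B, and at 9.45, 10.97 and 10.95 in shWDR5. It was lower in shKAT2B within each treatment, by -0.58 ± 0.09, or 1.5-fold (adjusted p = 0.00217), with -0.26 against shNS in shKAT2B (adjusted p = 0.0676) and 0.32 in shWDR5 (adjusted p = 0.0444). Tat, which starts tyrosine breakdown, stood at 7.40, 10.39 and 10.55 in shKAT2B and at 8.78, 10.80 and 11.40 in shWDR5 (-0.88 ± 0.28, adjusted p = 0.0495). Its adjusted p was 0.218 without shWDR5 PBS A, 0.161 without shKAT2B PBS A, 0.10 without shKAT2B glucagon A, 0.0910 without shKAT2B glucagon B, 0.135 without shWDR5 glucagon B, 0.0535 without shNS PBS A and 0.0706 without shNS glucagon A. Crem, an inducible repressor of CREB targets, stood at 0.32 ± 0.12 (adjusted p = 0.092), and at 0.45 (adjusted p = 0.0222) without shWDR5 glucagon B. With the library set as a term Crem was called at the same difference (adjusted p = 0.00844), as was Nr4a1 at -0.49 (adjusted p = 0.0214, against 0.0961 without the term).

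With glucagon libraries alone, 2 against 2, 724 genes were called (6.31%), 331 higher (2.88%) and 393 lower (3.42%). This count depended on every library except the lone PBS ones of the depletion arms. It was 24 without shWDR5 glucagon A, 28 without shKAT2B glucagon B, 33 without shWDR5 glucagon B, 191 without shKAT2B glucagon A, 303 without shNS PBS B, 304 without shNS PBS A and 224 without either shNS glucagon library. Nr4a1, an orphan nuclear receptor and immediate CREB target, stood at 10.90 and 10.87 in shKAT2B and at 11.76 and 11.57 in shWDR5 under glucagon, beside 11.69 and 11.73 in shNS. The difference under glucagon was -0.78 ± 0.10 (adjusted p = 0.0129). Under PBS the arms stood at 8.28 and 8.20. The adjusted p under glucagon rose to 0.0742 without shWDR5 glucagon A, 0.0622 without shWDR5 glucagon B, 0.0515 without shKAT2B glucagon A and 0.0828 without shKAT2B glucagon B.

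Whether the response to glucagon itself differed between the arms was tested as an interaction, which rests on 1 PBS library per arm. limma called none of the 11480 genes (0%), and 20 had an unadjusted p below 0.05 (0.174%). With no true difference a share near 0.05 would be expected, so these p-values are too large. The lack of calls therefore does not show that the responses were equal. The smallest p belonged to Nr4a1, whose rise was smaller in shKAT2B by -0.86 ± 0.17 (unadjusted p = 0.00155, adjusted p = 1). Next were the zinc finger gene Zfp931 at -0.82 ± 0.17 (unadjusted p = 0.00167) and Gde1, a phosphodiesterase of glycerolipids, at -0.58 ± 0.15 (unadjusted p = 0.00564), with an adjusted p of 1 for both. None of the 3 passed.

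Markers of cell types were set beside these results. All 6 depletion libraries carried hepatocyte transcripts at high intensity, with Alb (albumin) between 13.37 and 13.75. Of 19 hepatocyte identity genes tested, 2 were called lower and none higher (10.5%, beside 22.7% of all genes tested). The median was -0.20, and with the library set as a term 11 were called lower and 1 higher. Ttr, transthyretin, kept its call under every alternative run and stood at 11.37, 11.17 and 11.30 in shKAT2B against 12.20, 12.13 and 12.18 in shWDR5 (-0.89 ± 0.09, adjusted p = 0.000299). Tat was the other call. The count was 4 without shWDR5 glucagon A and 1 when shWDR5 or shKAT2B PBS A, shWDR5 or shKAT2B glucagon B, shNS PBS A or shNS glucagon A was left out. The summed intensity of the 19 genes ran from 52483 to 57100 in shKAT2B, 55755 to 62121 in shWDR5 and 60453 to 70126 in shNS.

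For cells other than hepatocytes the arms overlapped in most sums. None of 15 Kupffer cell and leukocyte markers tested was called (median 0.01, with 3 higher and 1 lower with the library set as a term), and the sum over the 19 on the array ran from 9097 to 17302 in shKAT2B and from 9739 to 14580 in shWDR5. None of 16 endothelial markers was called (median 0.06, with 2 higher with the library set as a term), with sums of 5938 to 9271 and 6368 to 8353. For stellate cells and fibroblasts 1 of 13 was called, which was Lox, with a median of 0.08 and sums of 8042 to 11229 and 8226 to 12122. Bile duct markers were the exception, with sums of 9242 to 10538 in shKAT2B, 6349 to 7103 in shWDR5 and 8713 to 9374 in shNS. Of their 4 tested members 3 were positive and 1 was negative, with the lowest difference at -0.22. Cldn4, a claudin of tight junctions, was called higher at 0.73 ± 0.15 (adjusted p = 0.00757, or 0.0667 with glucagon libraries only in the depletion arms). It stood at 12.74, 12.19 and 12.60 in shKAT2B and at 11.98, 11.52 and 11.83 in shWDR5. At these levels Cldn4 alone made up a large part of the sums, so the sums do not stand for the list as a whole. Krt19 stood at 0.59 ± 0.22 (adjusted p = 0.0891) and Krt7 at 0.03 ± 0.11 (adjusted p = 0.899). Against shNS the median of the 4 was negative in both arms, at -0.27 in shKAT2B and -0.39 in shWDR5. Without shWDR5 glucagon A 2 of the 4 were called higher. The macrophage marker Adgre1 stood at 8.80, 7.49 and 8.97 in shKAT2B and at 8.68, 7.64 and 8.93 in shWDR5, so that the glucagon A library was the lowest of both arms. No marker was at 0 on this intensity scale, which has no true zero. In RNA of whole cultures fewer cells of a type and less RNA per cell cannot be told apart, and the part of other cell types in the results was not tested.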

How the data were processed

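The deposited table holds linear array intensity for 26913 features in 10 libraries. Per the submitters' processing notes the authors used Affymetrix Expression Console 1.1.1. How the authors normalized these deposited intensity values is not stated, since no method is given in the sources used here. Every deposited value was above 0 (4.47 to 22694), so log2 was taken with no pseudocount. An array has no read depth, and the number of libraries limits the precision. Features with 1 gene symbol (17873) were matched to RefSeq by gene identifier (17815 matched), features with several symbols (1128) or no gene (7912) were not named, and each of 16401 genes was represented by its feature of highest mean. The lowest 30% of genes by mean were left out, which left 11480.

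limma 3.58.1 in R 4.3.3 fitted arm and treatment additively to all 10 libraries (6 residual degrees of freedom), and the shNS libraries added only to the estimate of the spread. A model of the 6 groups (4 residual degrees of freedom) gave the differences under glucagon and the interaction, and assumed that lone libraries vary like the rest. Tests were two-sided with eBayes and a trend, and p were adjusted by Benjamini-Hochberg over all genes tested. The fit was first run on simulated data with independent noise in each library. That noise lacks the component shared between libraries in the real residuals, so the run does not check the p-values given here. Gene lists were described by counts and medians with no test. Motifs were counted in Python 3.11.15 with pandas 2.3.3, and matplotlib 3.10.9 drew the figures.

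The genes named are Kat2b, Wdr5, the 4 markers given with the comparison, up to 10 called genes at each end of the difference without overlap within a treatment, up to 4 called members per list by p, the 3 smallest interaction p, and Nr4a1, Ppargc1a, Crem, G6pc, Pck1 and Tat. Kat2a, Nfe2l2, Keap1, Alb, Adgre1, Krt19, Krt7 and the genes whose promoters are printed were chosen after their values were seen. The comparison, the markers and the lists were chosen with earlier results of these data known. List members not on the array, or under the filter, were not analysed here.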

Additional observations from a re-analysis of the deposited data

How the results depend on the processing

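For shKAT2B minus shWDR5, over both treatments, 2164 to 2952 genes were called under quantile normalization, median-centred libraries, other filters, pseudocounts of 1 and 16, the mean of a gene's features and no trend, against 2608. The count was 1685 on the 6 depletion libraries alone, 726 with glucagon libraries only in the depletion arms and 5787 with the library set as a term, the last 2 chosen after seeing the data, and 1442 to 2679 without 1 library. For shKAT2B minus shWDR5 under glucagon it was 724, with 660 to 962 under the first settings, 21 on the 6 libraries alone and 24 to 727 without 1 library. Libraries with the same letter shared deviations (correlation of A minus B across genes 0.721 between the depletion arms), but the labels do not say what the letters mark, those arms share 2 letters at most and each of their PBS A libraries lay with the B libraries, so the letter was not taken as a pairing. With the replicate block 4137 genes were called over both treatments and 4510 under glucagon, and on the 6 libraries alone 4861 and 1463. On all 10 libraries the block also called Crem (adjusted p = 0.0176) and Nr4a1 (0.0480). The interaction gave 0 calls in every limma fit run, with 20 genes at an unadjusted p below 0.05, 7 on the 6 libraries alone, 452 with the replicate block, 122 with both and 12 to 113 in the other fits, and could not be fitted without either lone PBS library. G6pc, not called, turned to -0.45 without shWDR5 glucagon A, -0.16 without shKAT2B PBS A and -0.03 without shKAT2B glucagon B, in a range of -0.45 to 0.35. Pck1, not called, turned to 0.32 without shWDR5 glucagon B, 0.16 without shKAT2B glucagon A and 0.09 without shWDR5 PBS A, in a range of -0.51 to 0.32. The causes were not tested. Of 84 named called genes, 42 kept their call under every alternative in which they were tested. Some of these, such as Il1f9, H60b and Cyp2j5, fell under the filter on low values in part of the alternatives. Counted over pairs of list and fit, list medians moved in 63 and held in 535.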

Other observations

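Several further lists gave few calls, each a smaller share than the 22.7% over all genes tested, with single genes apart. Icam1, an adhesion molecule for leukocytes, was the 1 gene called higher among 21 acute phase and NF-kB genes, at 11.05, 10.87 and 11.05 in shKAT2B against 10.07, 10.18 and 9.89 in shWDR5 (0.94 ± 0.15, adjusted p = 0.00257, or 0.0520 with glucagon libraries only in the depletion arms). The plasma protein Crp was the 1 gene called lower (-0.56 ± 0.14, adjusted p = 0.0205), and it lost its call without shWDR5 PBS A (adjusted p = 0.110), shWDR5 glucagon B (0.0776), shKAT2B PBS A (0.0744) or shKAT2B glucagon B (0.0699). The median of that list was -0.22. Of 18 interferon-stimulated genes 1 was called lower and none higher (median -0.11). It was Oasl1, an antiviral gene, at 10.54, 10.80 and 10.72 against 11.29, 11.87 and 11.42 (-0.84 ± 0.14, adjusted p = 0.00277), without overlap.

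Of 16 genes of fatty acid oxidation and ketogenesis, 2 were called higher and 1 lower (median 0.13). The acyl-CoA dehydrogenase gene Acadvl stood at 8.95, 9.02 and 8.97 in shKAT2B against 8.74, 8.66 and 8.51 in shWDR5 (0.34 ± 0.08, adjusted p = 0.014, or 0.0697 on the 6 depletion libraries alone), and its level against shNS was -0.03 in shKAT2B and -0.37 in shWDR5. Of 19 genes of cholesterol synthesis 2 were called higher and 2 lower (median -0.12), and none of the 4 kept its call under every alternative. Of 16 clock genes 1 was called lower and none higher (median -0.02), which was the repressor Cry1 at -0.29 ± 0.08 (adjusted p = 0.0226). Cry1 was higher than shNS in shWDR5, at 0.42 (adjusted p = 0.00899). With any 1 library left out, acute phase calls ran from 1 to 2 higher and 0 to 4 lower, interferon calls from 0 to 1 and 1 to 3, fatty acid oxidation calls from 1 to 2 and 0 to 2, and cholesterol calls from 0 to 1 and 0 to 2. The clock count was 0 without shKAT2B glucagon B or any 1 of the shWDR5 libraries.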
